A study of Mus musculus with 10 samples.

Results

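The genes described here are the ErbB receptors and the neuregulin and EGF ligands that bind them, 9 of the 51789 genes in the count table. The members are the 4 receptor genes Egfr, Erbb2, Erbb3 and Erbb4 and the 5 ligand genes Nrg1, Hbegf, Areg, Btc and Tgfa, found by matching each Ensembl identifier to its symbol in the GENCODE M21 annotation. All 9 were in the table, and 8 passed the filter on low counts. The RNA came from cells labelled cardiomyocytes, taken from mice on day 4 after myocardial infarction (MI), which all animals compared here had undergone. TgGRK5-MI mice carried a transgene that overexpresses G protein-coupled receptor kinase 5 (GRK5) in cardiomyocytes, and NLC-MI mice were their non-transgenic littermates, with 5 libraries in each group. The study used adult mice of both sexes, and the age and sex behind each library were not given in the labels. No sham-operated library was analysed here, so every comparison is between genotypes after MI.

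ErbB receptors are tyrosine kinases that pair with one another when a ligand of the EGF family binds. EGFR binds EGF, HB-EGF, TGF-alpha, amphiregulin and betacellulin, ERBB3 and ERBB4 bind the neuregulins, ERBB2 has no known ligand and serves as the shared partner, and ERBB3 has little kinase activity of its own. In the heart, neuregulin 1 released by endothelial cells acts on ERBB4 and ERBB2 of cardiomyocytes, and loss of ERBB2 signaling is known for its toxicity to heart muscle. Beta-adrenergic receptors phosphorylated by GRKs can also activate EGFR through beta-arrestin and the release of HB-EGF from the cell surface, which makes these genes of interest where a GRK is overexpressed.

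Library totals ran from 7968779 to 23381527 counts, and the 3 shallowest libraries were NLC-MI 3, TgGRK5-MI 4 (9114469) and TgGRK5-MI 3 (12833652). Levels are given as CPM, counts scaled to a common library size with TMM factors, and 3 counts corresponded to 0.121 to 0.393 CPM. Grk5 rose from 60.4 ± 9.50 CPM (SD, n = 5) in NLC-MI to 1222 ± 472 CPM (SD, n = 5) in TgGRK5-MI, a log2 fold change of 4.34 (SE 0.32, adjusted p = 0.000246 in edgeR's quasi-likelihood test with Benjamini-Hochberg adjustment). All 8 cardiomyocyte markers were well above the floor, and their summed level was 45449 to 116287 CPM in NLC-MI and 48452 to 95333 CPM in TgGRK5-MI. Markers of other cardiac cells were present as well. The 7 fibroblast markers summed to 4027 to 24086 CPM in NLC-MI and 4194 to 24745 CPM in TgGRK5-MI, a 6.14-fold range over the 10 libraries, and the difference between the groups in their mean log2 CPM was 0.15 (exact permutation test, two-sided, p = 0.786). Of the 9 marker lists, only the mural cell list differed between the groups at an exact permutation p under 0.05 (difference -0.29, p = 0.0317). These p-values were not adjusted over the 9 lists. In such bulk samples, fewer cells of a type and less RNA per cell cannot be told apart.

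No member was called changed by GRK5 overexpression. Of the 8 members tested, 0 passed an adjusted p of 0.10 and 0 passed an unadjusted p of 0.05. Over all 15232 genes tested, 8 were higher (0.0525%) and 4 were lower (0.0263%) at the adjusted threshold. At the unadjusted threshold 269 genes were higher (1.77%) and 317 lower (2.08%), 3.85% in either direction. The libraries of the groups overlapped for all 9 members, and 1.00% of the genes tested had groups that did not overlap. Log2 fold changes of the 8 members lay between -0.47 and 0.23, with a median of -0.11 against 0.00 over all genes tested, and each adjusted p was 1.00. DESeq2 and limma-voom also called 0 members at either threshold.

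**Figure D1:**
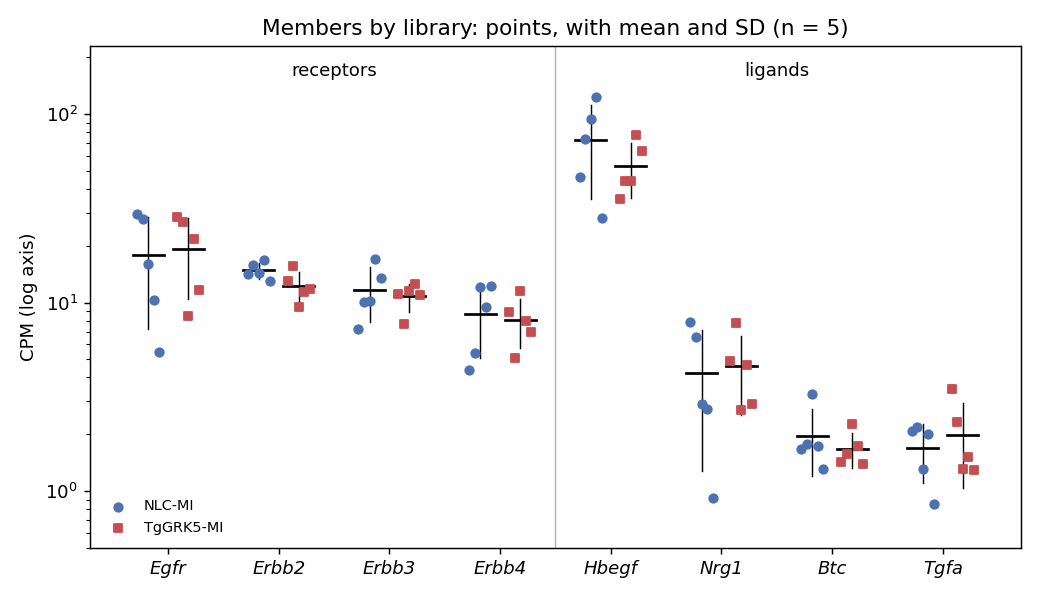
CPM of the 8 members that passed the filter (log axis), with receptors on the left and ligands on the right. Each point is 1 library (circles NLC-MI, squares TgGRK5-MI, n = 5 each), long bars are means and thin lines SDs; the groups overlap for every gene, and Nrg1 spans an 8.65-fold range over the 10 libraries.

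Per length of transcript, Hbegf was the most abundant member and Areg the least. Levels between genes were compared as TPM, computed from the counts and the exon length of each gene and scaled to the same sum in every library. Over the 10 libraries Hbegf had a mean of 38.6 TPM, above Erbb2 (7.65 TPM) in all 10. Erbb2 was above Erbb3 (5.39 TPM) in 9 of 10 libraries. Erbb3 and Egfr (4.95 TPM) were not separated, since Erbb3 was the higher in 6 of 10. Egfr was above Erbb4 (1.93 TPM) in 8 of 10, and Erbb4 was above Nrg1 (1.28 TPM) in 7 of 10. The order of Erbb4 and Nrg1 depended on the length used, since with the length of the longest transcript their means were 1.51 and 1.87 TPM and Erbb4 was the higher in 5 of 10. Nrg1 and Btc (1.16 TPM) were not separated either, with Nrg1 the higher in 5 of 10. Tgfa (0.841 TPM) was under Btc in 8 of 10, and Areg (0.336 TPM) was under Tgfa in 8 of 10. With the longest transcript Btc and Tgfa had 0.997 and 0.920 TPM, with Btc the higher in 5 of 10. By mean TPM, Hbegf stood at percentile 78.1 of all genes tested, Erbb2 at 38.4, Erbb4 at 14.9 and Nrg1 at 10.2.

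Egfr, the receptor of EGF, HB-EGF and TGF-alpha, varied the most among the receptors. The gene lies on chromosome 11 (GRCm38, 16752203 to 16918158, plus strand). Its level in NLC-MI was 29.6, 27.9, 16.1, 10.4 and 5.43 CPM in replicates 1 to 5. In TgGRK5-MI it was 28.3, 26.7, 8.43, 21.7 and 11.7 CPM. Each group held libraries close to 30 CPM and libraries near or under 10 CPM, so the groups covered the same range. The means were 17.9 ± 10.6 and 19.3 ± 8.90 CPM (SD, n = 5 each). The log2 fold change was 0.11 (SE 0.46, 95% interval -0.88 to 1.11, adjusted p = 1.00 in edgeR), an interval that runs from a 0.542-fold to a 2.15-fold level in TgGRK5-MI.

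Erbb2, the ligandless partner of the other receptors, was the steadiest member and the receptor with the lowest unadjusted p. It lies on chromosome 11 (98412470 to 98437716, plus strand), and 9 of its 5210 exon bases are shared with Mien1 on the other strand. The libraries of NLC-MI held 14.1, 15.7, 14.4, 16.8 and 13.0 CPM. Those of TgGRK5-MI held 13.0, 15.6, 9.47, 11.4 and 11.8 CPM. TgGRK5-MI replicates 3, 4 and 5 were under every NLC-MI library, TgGRK5-MI 1 equalled the lowest of them to 3 digits and was under it in the next, and TgGRK5-MI 2 lay within their range. The means were 14.8 ± 1.47 and 12.3 ± 2.25 CPM (SD, n = 5 each), and 1 of 5 TgGRK5-MI libraries was above the NLC-MI mean. The log2 fold change was -0.27 (SE 0.16, 95% interval -0.63 to 0.08, unadjusted p = 0.121 and adjusted p = 1.00 in edgeR). The exact two-sided permutation test of the mean log2 CPM gave p = 0.0476, the only 1 of the 9 members under 0.05, where the smallest p that 5 against 5 allows is 0.00794. It was not adjusted over the 9 members, and the share of all genes under 0.05 in this test was not computed. This p was 0.0635 to 0.103 when any of 8 libraries was left out and 0.198 when counts were scaled by library size alone. Leaving out NLC-MI 5 or TgGRK5-MI 2 kept it under 0.05, and edgeR without TgGRK5-MI 2 gave a log2 fold change of -0.37 (unadjusted p = 0.0439). TgGRK5-MI 3 and TgGRK5-MI 4, which held the lowest Erbb2 levels, are among the 3 shallowest libraries. With those 3 libraries left out, edgeR gave a log2 fold change of -0.15 for Erbb2 (SE 0.17, unadjusted p = 0.397). This estimate was the smallest in size of the 19 alternatives. The mural cell markers were also lower in TgGRK5-MI, by -0.29 in mean log2 CPM (exact permutation p = 0.0317, not adjusted over the 9 marker lists). With group means removed Erbb2 had r = 0.67 with them (permutation p = 0.0904, adjusted p = 0.241 and rho = 0.33, permutation p = 0.417, adjusted p = 0.665). Without the 2 libraries farthest from the median r was -0.085. The fibroblast list gave r = 0.63 (permutation p = 0.0443, adjusted p = 0.177 and rho = 0.48, adjusted p = 0.386), and 0.95 without its 2 farthest libraries. The cardiomyocyte list gave r = -0.63 (permutation p = 0.0470, adjusted p = 0.178 and rho = -0.44, adjusted p = 0.460), and -0.20 without its 2 farthest. The part of any of these markers in the Erbb2 value was not tested.

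Erbb3, the kinase-impaired neuregulin receptor, did not separate the groups. It lies on chromosome 10 (128567523 to 128589652, minus strand). Its level was 7.22, 10.1, 10.2, 17.0 and 13.5 CPM in NLC-MI. It was 11.1, 7.72, 11.6, 12.6 and 10.9 CPM in TgGRK5-MI. All 5 TgGRK5-MI values fell inside the NLC-MI range. The means were 11.6 ± 3.76 and 10.8 ± 1.83 CPM (SD, n = 5 each), with a log2 fold change of -0.11 (SE 0.23, 95% interval -0.62 to 0.40).

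Erbb4, the neuregulin receptor of cardiomyocytes, had the lowest level per length of the 4 receptors. It lies on chromosome 1 (68032186 to 69108059, minus strand). NLC-MI libraries held 4.40, 5.38, 12.0, 9.52 and 12.3 CPM. TgGRK5-MI libraries held 8.86, 5.11, 11.6, 7.97 and 6.98 CPM. The lowest libraries were NLC-MI 1, TgGRK5-MI 2 and NLC-MI 2, which were among the 4 highest for Egfr. The means were 8.73 ± 3.68 and 8.09 ± 2.39 CPM (SD, n = 5 each), with a log2 fold change of -0.10 (SE 0.32, 95% interval -0.80 to 0.59).

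The sequence upstream of the start site was read from RefSeq (build GRCm38.p6) for Egfr, Erbb2 and Erbb4, the 3 receptors with an entry. Of the 9 members, 6 had an entry, and Nrg1, Erbb3 and Hbegf had none. The 3 sequences are shown because Egfr varied the most of the receptors between libraries and Erbb2 the least. With group means removed, Egfr and Erbb4 had r = -0.74 (permutation p = 0.0365, adjusted p = 0.203), short of the threshold. A relation of these sequences to the levels was not tested. Each line gives the 250 bases before the RefSeq start, 5′ to 3′ on the gene's strand, at chr11:16751953-16752202 (plus) for Egfr, chr11:98412234-98412483 (plus) for Erbb2 and chr1:69108060-69108309 (minus) for Erbb4. The RefSeq start of Erbb2 lies inside the gene as GENCODE gives it, so the last bases of that line fall within its GENCODE span. Capitals mark a GC box (GGGCGG on either strand).
Egfr: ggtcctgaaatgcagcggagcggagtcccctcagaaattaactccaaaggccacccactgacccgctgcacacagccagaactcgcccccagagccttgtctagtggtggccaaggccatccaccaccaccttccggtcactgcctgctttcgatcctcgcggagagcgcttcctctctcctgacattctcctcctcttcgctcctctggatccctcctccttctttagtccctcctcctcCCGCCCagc
Erbb2: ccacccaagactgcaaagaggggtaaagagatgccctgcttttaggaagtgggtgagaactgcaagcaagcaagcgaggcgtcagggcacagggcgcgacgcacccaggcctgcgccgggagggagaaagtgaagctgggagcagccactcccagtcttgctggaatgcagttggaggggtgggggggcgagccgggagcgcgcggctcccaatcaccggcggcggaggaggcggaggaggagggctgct
Erbb4: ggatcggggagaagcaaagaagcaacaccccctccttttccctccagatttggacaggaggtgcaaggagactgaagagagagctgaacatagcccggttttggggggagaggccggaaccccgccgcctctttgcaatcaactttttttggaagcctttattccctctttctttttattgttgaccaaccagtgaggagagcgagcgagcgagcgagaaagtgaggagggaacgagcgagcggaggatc
GC content was 60.8% for Egfr, 66% for Erbb2 and 54% for Erbb4, against a median of 52.4% over 32851 promoters. Egfr held 1 GC box, on the minus strand, and the other sequences held 0, where 32.74% of all promoters hold at least 1. None of the 3 held a TATA box (TATAAA on either strand), which 12.37% of promoters hold.

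**Figure D2:**
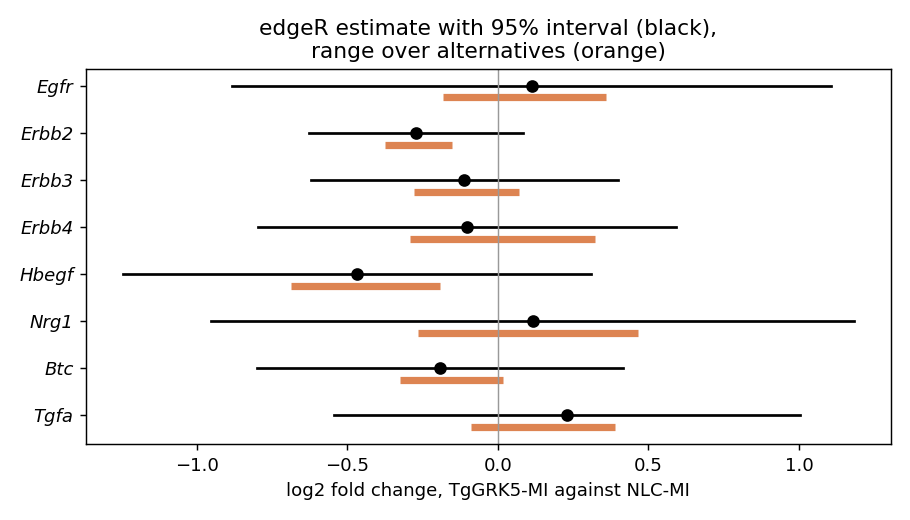
Log2 fold change of each tested member, TgGRK5-MI against NLC-MI, as the edgeR estimate (black point) with its 95% interval (black line). Orange bars show the range over 19 alternative settings; every black interval crosses 0, and Erbb2 and Hbegf kept a value under 0 in all 19.

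Within the receptor family, the shares of Egfr, Erbb3 and Erbb4 differed more between libraries of a group than between the genotype means. The Erbb2 share was steady in NLC-MI and spread in TgGRK5-MI. Taking the 4 receptors' TPM as 100%, Erbb2 held 40.3% ± 0.846 in NLC-MI and 36.2% ± 4.69 in TgGRK5-MI (SD, n = 5 each). The Erbb2 share lay between 39.4% and 41.6% in all 5 NLC-MI libraries. In TgGRK5-MI it was 33.0%, 42.5%, 33.6%, 32% and 40.0% in replicates 1 to 5, on both sides of the NLC-MI range. The difference of -4.05 percentage points had an exact permutation p of 0.143 (two-sided, 0.571 after Benjamini-Hochberg adjustment over the 4 receptors). Without TgGRK5-MI 2 it was -5.62 points (exact permutation p = 0.0238).
Egfr held 22.1% ± 13.0 in NLC-MI and 25.2% ± 8.91 in TgGRK5-MI (exact permutation p = 0.659, adjusted p = 0.921, n = 5 each). Its share ran from 7.70% in NLC-MI 5 to 38.0% in NLC-MI 1, the widest range of the 4. Erbb3 held 27.4% ± 8.60 and 28.1% ± 6.81, and Erbb4 held 10.2% ± 4.87 and 10.4% ± 4.17 (exact permutation p = 0.881 and 0.921, adjusted p = 0.921 for both, n = 5 each). In NLC-MI 5 Erbb4 took 16.0% and exceeded Egfr, and in NLC-MI 1 it took 5.18%. TgGRK5-MI 3 likewise had more Erbb4 (17.3%) than Egfr (13.7%), and the other 8 libraries had more Egfr than Erbb4.

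**Figure D3:**
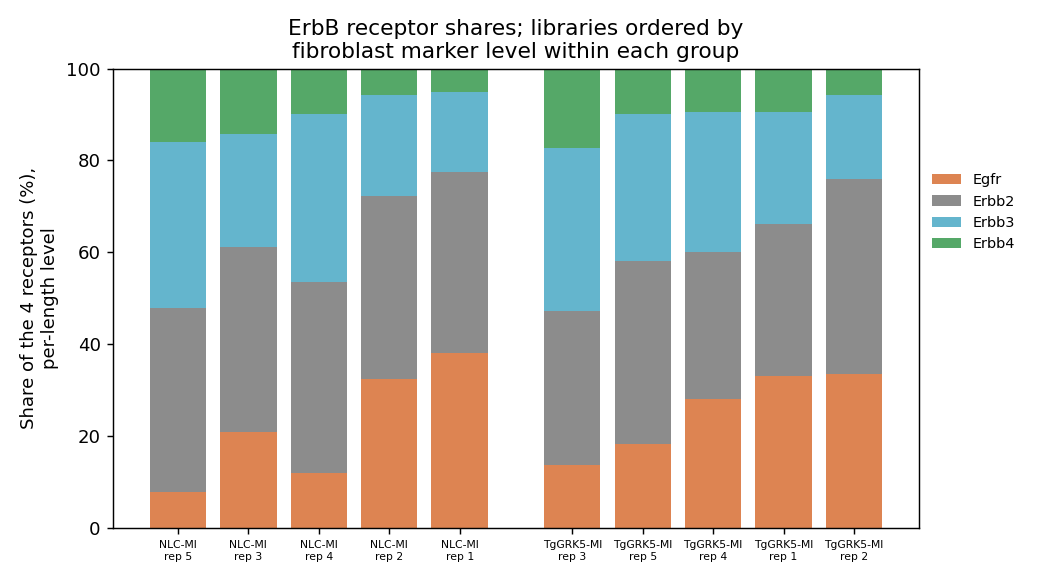
Share of each receptor in the summed per-length level of the 4 ErbB receptors (%), 1 bar per library, with the libraries of each group ordered from the lowest to the highest fibroblast marker level. Erbb2 (grey) takes 32% to 42.5%, while the Egfr share (orange) ranges from 7.70% to 38.0% and the Erbb4 share (green) from 5.18% to 17.3%.

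Nrg1 encodes neuregulin 1, the ligand of ERBB3 and ERBB4, and had the widest range of the members tested. It lies on chromosome 8 (31814551 to 32884029, minus strand), and 482 of its 10351 exon bases overlap a long noncoding RNA (Gm26578) on the other strand, whose reads cannot be told apart without strand. NLC-MI libraries held 7.93, 6.56, 2.88, 2.72 and 0.916 CPM. TgGRK5-MI libraries held 4.92, 7.81, 2.69, 4.63 and 2.90 CPM. NLC-MI 1 and TgGRK5-MI 2 were the highest, and NLC-MI 5, with 14 counts, was the lowest. The means were 4.20 ± 2.92 and 4.59 ± 2.06 CPM (SD, n = 5 each), with a log2 fold change of 0.11 (SE 0.49, 95% interval -0.95 to 1.18). The interval spans a 0.517-fold to a 2.27-fold level.

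Hbegf encodes the heparin-binding ligand of EGFR and ERBB4, and had the largest estimate of the members tested. It lies on chromosome 18 (36504927 to 36515805, minus strand). Its level was 46.6, 73.4, 94.5, 124.0 and 28.0 CPM in NLC-MI. It was 35.5, 44.4, 44.0, 77.6 and 63.5 CPM in TgGRK5-MI. NLC-MI held both the highest and the lowest library, and all TgGRK5-MI values fell between them. The means were 73.3 ± 38.0 and 53.0 ± 17.1 CPM (SD, n = 5 each), with a log2 fold change of -0.47 (SE 0.36, 95% interval -1.25 to 0.31, unadjusted p = 0.212 in edgeR). Without NLC-MI 5 the log2 fold change was -0.69 (unadjusted p = 0.0397 in edgeR), and without NLC-MI 4 it was -0.19 (unadjusted p = 0.581 in edgeR).

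Btc and Tgfa, which encode betacellulin and TGF-alpha, were low. Btc lies on chromosome 5 (91357261 to 91402994, minus strand) and had 16 to 44 counts per library. It stood at 1.67, 1.78, 3.27, 1.74 and 1.31 CPM in NLC-MI and at 1.43, 1.57, 2.26, 1.72 and 1.40 CPM in TgGRK5-MI. In each group replicate 3, a shallow library with 25 or 26 counts, was the highest. The log2 fold change of Btc was -0.19 (SE 0.28, 95% interval -0.80 to 0.42). Tgfa lies on chromosome 6 (86195223 to 86275719, plus strand), shares 118 of 6490 exon bases with Gm43917 on the other strand, and had 10 to 78 counts. It stood at 2.07, 2.19, 1.31, 2.02 and 0.851 CPM in NLC-MI and at 3.49, 2.31, 1.30, 1.51 and 1.29 CPM in TgGRK5-MI. TgGRK5-MI 1 alone was above 3 CPM, and the other 9 libraries overlapped. The log2 fold change of Tgfa was 0.23 (SE 0.35, 95% interval -0.54 to 1.01).

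Areg, which encodes amphiregulin, was at the limit of detection. It lies on chromosome 5 (91139599 to 91148432, plus strand), and the libraries held 0 to 4 counts each, from 1 to 3 in NLC-MI and from 0 to 4 in TgGRK5-MI. It did not pass the filter on low counts. A difference in Areg was not detectable at this depth.

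The ligands of the family outside the member list were low as well. Egf, the founding ligand of EGFR, stood at 4.40, 7.33, 3.93, 7.98 and 11 CPM in NLC-MI. It stood at 5.59, 4.23, 4.69, 1.51 and 3.44 CPM in TgGRK5-MI. All 5 TgGRK5-MI libraries were under the NLC-MI mean of 6.93 ± 2.88 CPM, and the groups overlapped. The log2 fold change was -0.82 (SE 0.35, 95% interval -1.59 to -0.05, unadjusted p = 0.0386 and adjusted p = 1.00 in edgeR), and the exact permutation p was 0.0794. Ereg, which encodes epiregulin, had 6 to 104 counts and a log2 fold change of -0.000127 (SE 0.39). Nrg2 had 2 to 25 counts and a log2 fold change of -0.12 (SE 0.43), and Nrg4 had 8 to 32 counts and 0.46 (SE 0.32, unadjusted p = 0.174 in edgeR). Epgn, which encodes epigen, had 1 to 6 counts and did not pass the filter. Nrg3 was listed at 0 in all 10 libraries.

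The genes that release the ligands, restrain the receptors or relay their signal gave few calls. Of 86 such genes with the other ligands included, 85 matched the annotation and 81 were tested. In these lists 2 genes were higher and 2 lower at an unadjusted p of 0.05, and 0 passed the adjusted threshold. That is a share close to the background of all genes, of which 3.85% passed the unadjusted threshold in either direction. Below 0 lay 56 of the 81 log2 fold changes and above 0 lay 25, with a median of -0.09 against 0.00 over all genes tested. Of all 15232 genes tested, 7586 lay below 0 and 7646 above.
Among 12 genes of ligand and receptor processing, the inhibitor of shedding proteases Timp3 was higher, at 183 ± 23.1 against 240 ± 32.8 CPM in NLC-MI and TgGRK5-MI (n = 5 each, log2 fold change 0.39, SE 0.15, unadjusted p = 0.0213 in edgeR). Adam17, the protease that sheds TGF-alpha and HB-EGF, stood at 58.9 ± 8.26 and 57.9 ± 7.80 CPM (log2 fold change -0.02, SE 0.15). Its 95% interval of -0.34 to 0.29 was narrower than that of any of the members.
Of 15 tested genes that inhibit the receptors or drive their turnover, 0 passed the unadjusted threshold, and 13 had values below 0. Errfi1, an inhibitor of EGFR kinase activity, had a log2 fold change of -0.09 (SE 0.33). All 10 tested feedback inhibitors of ERK signaling also missed it, with a median of -0.19, the lowest of the lists. Spry2, which acts on this pathway, stood at 17.8 ± 2.27 and 14.6 ± 2.03 CPM (n = 5 each, log2 fold change -0.29, SE 0.15, unadjusted p = 0.0864 in edgeR).
Of 22 adaptors and PI3K-AKT genes, Mtor, the growth kinase downstream of AKT, was lower, at 68.1 ± 18.9 and 50 ± 5.48 CPM (n = 5 each, log2 fold change -0.45, SE 0.19, unadjusted p = 0.0358 in edgeR). Of 18 RAS-ERK and STAT genes, Mapk3, which encodes ERK1, was higher, at 71.0 ± 8.04 and 90.2 ± 11.5 CPM (n = 5 each, log2 fold change 0.35, SE 0.14, unadjusted p = 0.0269 in edgeR). Adjusted p was 1.00 for all of the genes named from these lists. The exact permutation p was 0.0238 for Timp3, 0.0317 for Mapk3, 0.0476 for Spry2 and 0.0794 for Mtor, not adjusted over the lists. For Mtor and Spry2 the permutation test and edgeR thus fell on different sides of 0.05. The groups overlapped for each of these genes.

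**Figure D4:**
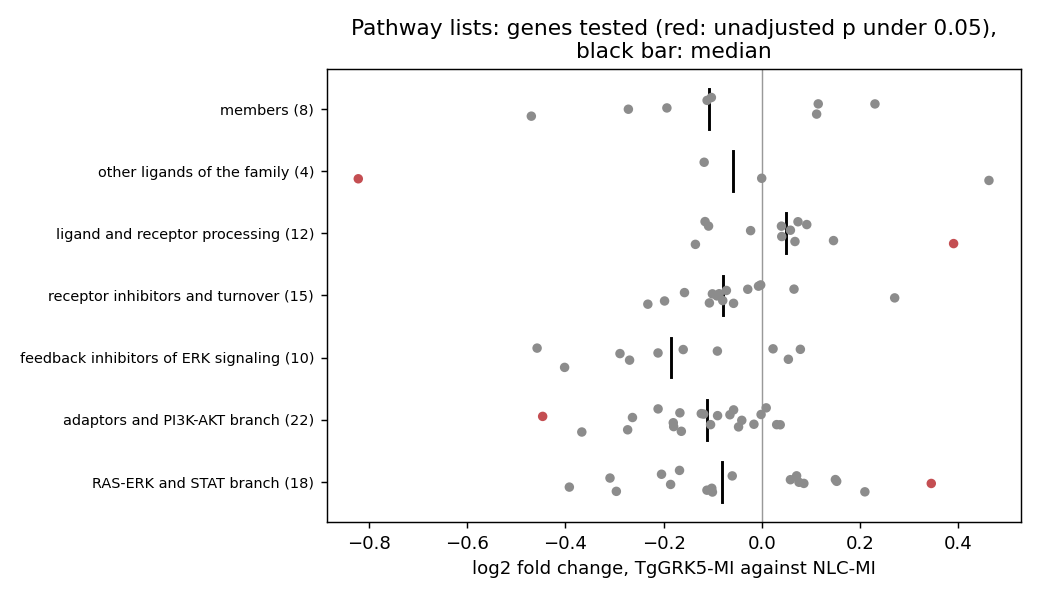
Log2 fold change (TgGRK5-MI against NLC-MI) of every tested gene in the member list and the 6 pathway lists, with the number tested in brackets. Points are genes, red where the unadjusted edgeR p is under 0.05, and black bars are medians; the 4 red points are Egf, Timp3, Mtor and Mapk3.

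With the group means removed, 4 of the 8 members tested (Egfr, Nrg1, Erbb4 and Hbegf) moved with at least 1 list of cell type markers. Each member's log2 CPM was correlated with the mean log2 CPM of 9 marker lists over the 10 libraries. This gave 72 pairs, 10 of which had an adjusted p under 0.05 for Pearson's r (permutation test with 100000 resamples within groups, Benjamini-Hochberg over the 72 pairs). All of the pairs share the library and its scaling, since a larger share of one cell type's RNA lowers the CPM of the rest.
Egfr rose with the fibroblast markers (r = 0.92, permutation p = 0.00086, adjusted p = 0.0103 and rho = 0.94, permutation p = 0.00083, adjusted p = 0.0149). Within NLC-MI and TgGRK5-MI alone r was 0.92 in each, and without the 2 libraries farthest from the median it was 0.86. Nrg1 did so too (r = 0.93, permutation p = 0.0002, adjusted p = 0.0095 and rho = 0.95, permutation p = 0.00044, adjusted p = 0.0106), with 0.85 without the 2 farthest libraries. The libraries with the most Nrg1, NLC-MI 1, NLC-MI 2 and TgGRK5-MI 2, were among the 4 highest for Egfr and held 23558, 24086 and 24745 CPM of fibroblast markers. NLC-MI 5, the lowest for both genes, held 4027 CPM.
Nrg1 had no such relation to the endothelial markers (r = 0.24, permutation p = 0.475, adjusted p = 0.673 and rho = 0.14, permutation p = 0.703, adjusted p = 0.829). It also followed the lymphocyte list (r = 0.95, adjusted p = 0.0095 and rho = 0.89, adjusted p = 0.0207). The 7 genes of that list summed to only 2.81 to 12.1 CPM, and only 3 of them passed the filter on low counts. Nrg1 went against the cardiomyocyte list (r = -0.89, adjusted p = 0.0217 and rho = -0.78, adjusted p = 0.104). Short of the threshold, Nrg1 had r = 0.84 with the macrophage list (permutation test, adjusted p = 0.0585). Egfr had r = 0.81 with the lymphocyte list (adjusted p = 0.0631), -0.81 with the cardiomyocyte list (adjusted p = 0.0585) and 0.72 with the macrophage list (adjusted p = 0.177). Neither gene was therefore particular to the fibroblast list.

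Erbb4 went the other way. It rose with the cardiomyocyte markers (r = 0.92, permutation p = 0.00045, adjusted p = 0.0095 and rho = 0.94, permutation p = 0.00018, adjusted p = 0.0106), and r was 0.95 without the 2 farthest libraries. It fell with the fibroblast markers (r = -0.92, permutation p = 0.00281, adjusted p = 0.0225 and rho = -0.93, permutation p = 0.00181, adjusted p = 0.0207), with r = -0.79 without the 2 farthest. Its closest relation was to the macrophage markers (r = -0.99, permutation p = 0.00029, adjusted p = 0.0095 and rho = -0.99, permutation p = 0.00034, adjusted p = 0.0106), with r = -0.99 without the 2 farthest. The lymphocyte list (r = -0.89, adjusted p = 0.0164) and the mural cell list (r = -0.70, adjusted p = 0.0387) gave negative values too, with an adjusted p of 0.104 for rho in both. The part of the mural markers, whose group difference had an unadjusted exact permutation p of 0.0317, in the Erbb4 value was not tested.

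Hbegf tracked neither fibroblast (r = -0.01) nor macrophage markers (r = -0.01), each with an adjusted p of 0.986. It rose with the neutrophil list (r = 0.91, permutation p = 0.00057, adjusted p = 0.0095 and rho = 0.83, permutation p = 0.00201, adjusted p = 0.0207), with r = 0.82 without the 2 farthest libraries. The 6 neutrophil genes summed to 10.01 to 26.9 CPM in NLC-MI and 14.8 to 35.0 CPM in TgGRK5-MI. NLC-MI 5 was the lowest library for both measures. Hbegf also had r = 0.73 with the endothelial list (permutation test, adjusted p = 0.0585), short of the threshold.
Erbb2, Erbb3, Btc and Tgfa had no pair with an adjusted p under 0.05 for r. Erbb3, which Schwann cells are known to express, had r = -0.25 with the Schwann cell list (adjusted p = 0.728). Within NLC-MI alone that r was -0.70, and within TgGRK5-MI alone it was 0.66. Erbb3 had r = 0.65 with the cardiomyocyte list (adjusted p = 0.225). With the lymphocyte, fibroblast and macrophage lists it had r = -0.76, -0.70 and -0.70 (adjusted p = 0.160, 0.184 and 0.201). The Schwann cell list summed to 10.8 to 15.6 CPM over all libraries, and 1 of its 7 genes stayed at or under the floor throughout. Tgfa had r = 0.76 with the fibroblast list (adjusted p = 0.0994).

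**Figure D5:**
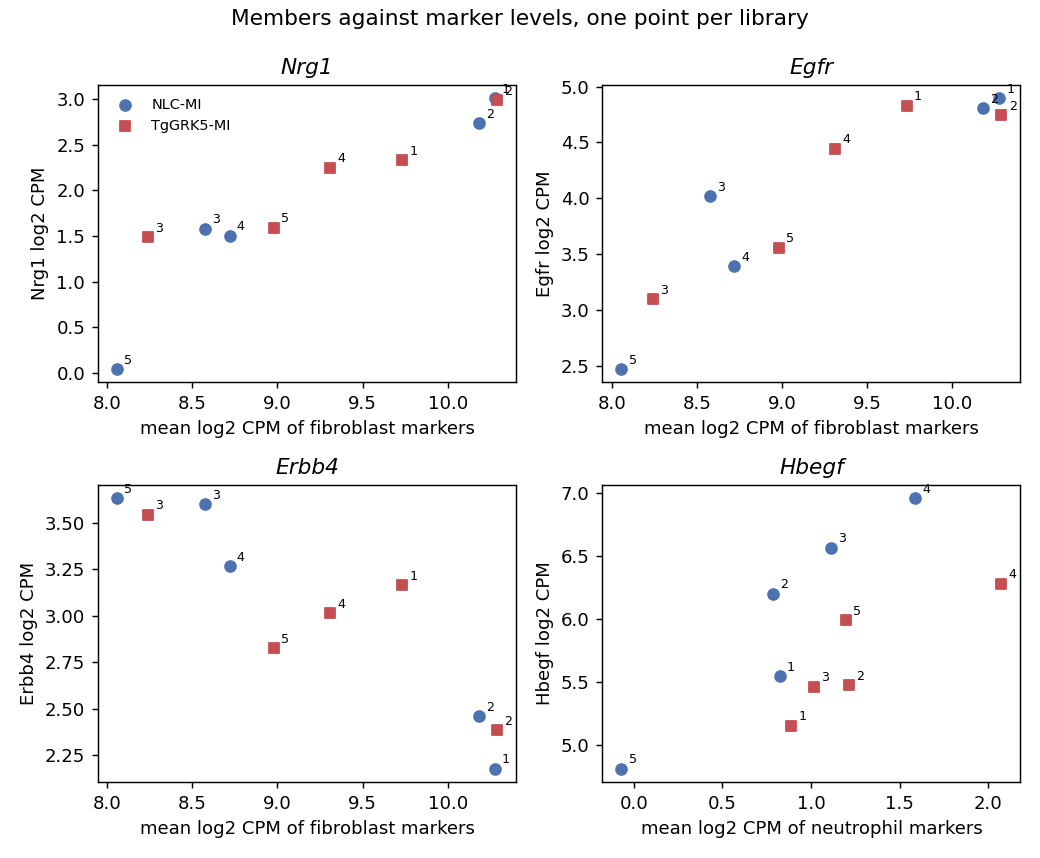
Log2 CPM of Nrg1, Egfr and Erbb4 against the mean log2 CPM of the fibroblast markers, and of Hbegf against that of the neutrophil markers; each point is 1 library with its replicate number (circles NLC-MI, squares TgGRK5-MI). Nrg1 and Egfr rise along the fibroblast axis and Erbb4 falls along it, with libraries of both genotypes along the whole range; with group means removed, r is 0.93, 0.92, -0.92 and 0.91 in the 4 panels.

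Fitting the fibroblast marker level as a covariate was an alternative chosen after seeing the data. It narrowed the estimates of Egfr, Nrg1 and Erbb4, which had already been seen to correlate with it, and produced no call among the members. The narrowing follows from those correlations and is not separate evidence for them. The standard error of the log2 fold change went from 0.46 to 0.22 for Egfr, from 0.49 to 0.22 for Nrg1 and from 0.32 to 0.17 for Erbb4, and stayed at 0.36 for Hbegf. The log2 fold changes in this fit were 0.07 for Egfr, 0.18 for Nrg1, 0.06 for Erbb4 and -0.45 for Hbegf. For Erbb2 the value was -0.31 (SE 0.14, unadjusted p = 0.0540 and adjusted p = 0.726 in edgeR), within a range of adjusted p over all alternatives of 0.420 to 1.00.

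Among the members themselves, 1 of 28 pairs had an adjusted p under 0.05 for r. Egfr and Nrg1 moved together (r = 0.94, permutation p = 0.00057, adjusted p = 0.0160 and rho = 0.99, permutation p = 0.00055, adjusted p = 0.0154), with r = 0.90 without the 2 farthest libraries. Egfr and Tgfa gave r = 0.79 (adjusted p = 0.105) and rho = 0.87 (adjusted p = 0.0343). Nrg1 and its receptor Erbb4 gave r = -0.84 (permutation p = 0.00717, adjusted p = 0.10) and rho = -0.81 (adjusted p = 0.120), so the libraries with more Nrg1 tended to hold less Erbb4, short of the threshold.

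The genes most like each member over the 10 libraries, by Pearson's r of log2 CPM after removing group means, are given as a description. For Egfr they were the transcription factor genes Runx1 (r = 0.99) and Trps1 (0.99), followed by Srgap3 (0.98). For Nrg1 they were Mex3a (0.99), Serpinf1 (0.99), which encodes the secreted protein PEDF, and Rassf2 (0.98). For Erbb4 they were Mapk10 (0.99), which encodes the kinase JNK3, Oxsr1 (0.98) and Naa35 (0.97). For Erbb3 they were Trim55 (0.95), Rsad1 (0.93) and Speg (0.93), of which Trim55 and Speg encode striated muscle proteins. For Erbb2 they were Fkbp15 (0.97), Jrkl (0.96) and Unc45a (0.96). For Hbegf they were Fhl1 (0.96), Arg1 (0.96), the arginase of alternatively activated macrophages, and Ppm1e (0.95). For Btc they were Il18bp (0.94), Cacna1a (0.94) and BC106179 (0.93), and for Tgfa Steap1 (0.93), Tnks (0.92) and Cyp51 (0.92).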

How the data were processed

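RNA of isolated cardiomyocytes was sequenced from 5 TgGRK5-MI and 5 NLC-MI mice on day 4 after MI, from libraries made per the labels with a kit that does not mark strand. The deposited table holds whole-number counts per Ensembl gene, which the authors made before deposit. The submitters' processing notes name mm10, Bowtie2, RSEM 1.2.31 and DESeq2 without their roles, and whether the counts are rounded RSEM estimates, the annotation and the strand setting are not given in the sources used here. Of 51789 identifiers, 51596 matched GENCODE M21. Groups came from the labels. The members and gene lists were chosen with earlier results of these data known.

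Counts were fitted with edgeR 4.0.16 (quasi-likelihood F test, TMM, filterByExpr by group, minimum count 10) in R 4.3.3 over 15232 genes, with Benjamini-Hochberg adjustment. The edgeR, DESeq2 and limma-voom fits were run on simulated counts, and the exact permutation test on values with a known answer. Exact permutation tests (two-sided) used log2 CPM with a prior count of 2. P-values set a difference or a correlation against the spread between these samples, and do not measure that spread. The floor of 3 counts covers counting error only. TPM used GENCODE exon-union length. Genes named were all members, all other ligands, every pathway gene with an unadjusted p under 0.05, the 3 genes most like each member, and Grk5. Adam17, Errfi1 and Spry2 were added after their values were seen. Alternatives were another scaling (RLE, library size), other filters, DESeq2 1.42.0, limma-voom 3.58.1, a replicate block and each library left out, and, added later, a fibroblast covariate and the deeper libraries alone.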

Additional observations from a re-analysis of the deposited data

Results flagged for a closer look

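Btc in NLC-MI 3 stood at 3.27 CPM, whereas the remaining 4 of its group spanned 1.31 to 1.78 CPM. The gap to its nearest neighbour was 0.759 of the group's range, above the Dixon limit of 0.71 for 5 values. The value rests on 25 counts in the shallowest library. It was the only 1 of 26 groups checked to stand apart in this way, and chance gives about 1 in 20. Without this library the log2 fold change of Btc was 0.02 in place of -0.19.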

How the results depend on the processing

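No member passed an adjusted p of 0.10 in edgeR under any alternative, nor in DESeq2 or limma-voom. Leaving out 1 library at a time gave 0 to 1 members at an unadjusted p of 0.05 (Hbegf without NLC-MI 5, Erbb2 without TgGRK5-MI 2), and the other alternatives gave 0. Log2 fold changes over the same omissions ran from -0.13 to 0.36 for Egfr, -0.37 to -0.20 for Erbb2, -0.26 to 0.070 for Erbb3, -0.29 to 0.051 for Erbb4, -0.17 to 0.47 for Nrg1, -0.69 to -0.19 for Hbegf, -0.32 to 0.017 for Btc and -0.091 to 0.36 for Tgfa. Differences of mean log2 CPM ran from -0.15 to 0.47 for Egfr, -0.38 to -0.21 for Erbb2, -0.24 to 0.086 for Erbb3, -0.27 to 0.11 for Erbb4, -0.086 to 0.65 for Nrg1, -0.65 to -0.11 for Hbegf, -0.14 to 0.35 for Areg, -0.29 to 0.031 for Btc and -0.043 to 0.31 for Tgfa. Receptor share differences ran from -0.49 to 7.08 points for Egfr, -5.62 to -3.01 for Erbb2, -1.74 to 3.22 for Erbb3 and -1.53 to 1.63 for Erbb4. Limma-voom with quality weights reversed Egfr (-0.18), Erbb3 (0.017), Erbb4 (0.32) and Nrg1 (-0.27), the fibroblast covariate reversed Erbb4 (0.062), and a prior count of 0.5 reversed Areg (-0.016). The cause was not tested. Erbb2 and Hbegf stayed under 0 in all 19 alternatives, which share most libraries, and their 95% intervals include 0.

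Over all genes, those higher at an adjusted p of 0.10 numbered 13 with library size alone, 13 without a filter, 4 with at least 10 counts in every library, 42 in DESeq2, 41 in limma-voom, 19 with the covariate, 5 with the deeper libraries alone and 2 to 7 with 1 library left out. Those lower numbered 27 in DESeq2, 9 in limma-voom, 8 with the covariate, 1 with the deeper libraries alone and 1 to 3 with 1 left out. At an unadjusted p of 0.05, those higher numbered 516 without a filter, 1138 in limma-voom, 579 with the covariate and 175 to 591 with 1 left out, and those lower 647, 493 in DESeq2, 672 in limma-voom and 264 to 537. The replicate block gave 5 genes higher and 3 lower at the adjusted threshold, and 0 members at either. Same-numbered libraries correlated over 0.1 in only 2 of 5 cases (0.07, 0.66, 0.38, -0.34 and 0.08). Their mean was 0.17, against -0.03 for libraries of different number. The labels do not say whether a number marks a shared day or litter, and the samples were not treated as pairs. Low counts limit Areg among the members, with 0 to 4 counts per library, and Btc and Tgfa had 16 to 44 and 10 to 78.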
